A study of Mus musculus with 7 samples.

Results

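The hair keratins and the keratin-associated proteins are the structural proteins of the hair and of the sheath that moulds it, and 73 of their genes were followed in skin of aged mice. A gene was a member if its mouse symbol began with Krtap or if it was on a list of 18 keratins, and if its counts summed over the 7 libraries reached 10. By symbol, 75 genes qualified, and 73 of the 55450 genes in the table met the minimum as well. Within this rule, the summed count was the only measured value the members were selected on. The members themselves were chosen with earlier results of these data known. They were 10 hair shaft keratins, 7 inner root sheath keratins and 56 keratin-associated protein genes of 26 numbered families, and 1 listed keratin was not analysed here. The minimum separated Krtap4-13, with 12 counts, and Krtap29-1, with 13, from Krtap13 and Krtap20-2, with 2 each.

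The skin came from male C57BL/6 mice aged 24 months. In every mouse the dorsal hair was clipped and the remainder taken off with Nair, the skin was wiped with 70% ethanol, and a Tegaderm dressing held the treatment in place for 5 days. ABT-263, an inhibitor of Bcl-2 family proteins used to remove senescent cells, was applied at 5 µM to 3 mice (476, 477 and 478), and the vehicle DMSO alone to 4 mice (480, 481, 482 and 483). One polyA RNA library was made per mouse from skin taken after these 5 days, with totals from 20344364 to 43562330 counted read pairs and every ABT-263 library larger than every DMSO library, and the labels name neither a batch nor a hair-cycle stage. Epidermal markers were abundant throughout, with Krt14, the basal layer keratin, between 8427 and 24884 CPM, and the skeletal muscle actin gene Acta1 lay between 8745 and 18200.5 CPM. Levels are in CPM, counts scaled to library size after TMM normalization in edgeR.

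Hair grows only during anagen, when matrix cells at the base of the follicle divide, move up and harden. The inner root sheath differentiates first and makes its own keratins, which sit in a trichohyalin matrix. The cortex and cuticle of the shaft then fill with hair keratins, type I paired with type II, and finally with keratin-associated proteins, which crosslink the keratin filaments. In telogen, the resting phase, these genes are quiet, so they read out whether follicles in a piece of skin are making hair. In bulk RNA, fewer follicle cells and less RNA per cell cannot be told apart.

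The genes lie in clusters. By the GENCODE M21 annotation of mm10 (GRCm38), 32 members lie on chromosome 11 between 99315516 and 100105626, which holds the type I keratins and 23 keratin-associated protein genes. Chromosome 16 holds 23 keratin-associated protein genes between 88610705 and 89571183, and chromosome 15 holds 8 type II keratins between 101459061 and 101802346. Chromosome 7 holds the 5 Krtap5 genes, chromosome 10 holds 3 genes and chromosome 1 holds 2. Of the 56 keratin-associated protein genes, 53 have a single exon. A few counts are uncertain, since Krtap10-10 shares 44.3% of its bases with Gm2696 and Krtap10-4 shares 28.1% with Gm7137 at near identity, Krtap15 overlaps 4930553J12Rik on the same strand over 19.1% of its exon bases, and Krtap19-9a is annotated as a processed pseudogene.

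The members share a promoter feature that the rule did not use. RefSeq promoter windows on GRCm38.p6 were found for 62 of the 73 genes. TATAAA, the core of the TATA box, read on the strand of the gene, stood within the 60 bases before the start in 44 of these 62 windows (71.0%), against 2.87% of all 32851 windows. The share was 6 of 7 for the inner root sheath keratins, 35 of 49 for the keratin-associated proteins and 3 of 6 for the hair shaft keratins. The 60 bases before the start are printed 5′ to 3′ for the members on which the results turn, with TATAAA in capitals. Krt71 (chr15:101743098-101743157, minus strand), Krt25 (chr11:99322952-99323011, minus) and Krt32 (chr11:100088270-100088329, minus) are keratins that carry it, and Krt84 (chr15:101532821-101532880, minus) does not carry it here. Other member windows lack it as well, and a link between the motif and the levels was not tested. Krtap8-1 (chr16:89487953-89488012, minus), Krtap22-2 (chr16:89010760-89010819, minus), Krtap3-2 (chr11:99556854-99556913, minus) and Krtap5-2 (chr7:142176006-142176065, minus) come from 4 families.
Krt71: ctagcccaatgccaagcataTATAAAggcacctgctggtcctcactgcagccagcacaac
Krt25: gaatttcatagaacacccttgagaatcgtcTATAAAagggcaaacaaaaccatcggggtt
Krt32: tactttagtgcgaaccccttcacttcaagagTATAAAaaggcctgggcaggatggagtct
Krt84: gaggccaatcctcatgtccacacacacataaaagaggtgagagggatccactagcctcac
Krtap8-1: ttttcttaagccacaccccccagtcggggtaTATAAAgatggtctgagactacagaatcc
Krtap22-2: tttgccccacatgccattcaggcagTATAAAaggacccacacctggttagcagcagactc
Krtap3-2: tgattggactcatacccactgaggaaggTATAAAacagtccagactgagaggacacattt
Krtap5-2: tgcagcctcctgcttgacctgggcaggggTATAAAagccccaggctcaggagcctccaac

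The motif began 29 bases before the RefSeq start in Krt32 and Krtap8-1 and 40 bases before it in Krt71. The GENCODE start differs from the RefSeq start in Krt71 and Krt32 (GENCODE minus RefSeq position, 12 and −43), so these distances depend on the annotation. Other motifs were searched on either strand in the 300 bases from 250 before to 50 after the start, allowing overlaps. CTTTGAA, a form of the motif of the Wnt effectors TCF and LEF, was in 13 of the 62 member windows (20.97%) and in 5.14% of all windows, and the variant CTTTGAT in 4 (6.45%, against 3.73%). TGTTTAC, a forkhead factor form, was in 5 (8.07%, against 3.65%). TTTATTG, a form bound by HOX13 proteins, was in none of the 62 windows, against 4.60% of all. These are letter matches only, and members of one family share sequence.

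The sums of the members differed far more between mice than between treatments. Summed over all 73 members, the level was 5611 CPM in DMSO mouse 481 and 985 CPM in ABT-263 mouse 478. In the other DMSO mice it was 49.9 CPM (480), 38.9 CPM (482) and 37.4 CPM (483), and in the other ABT-263 mice 6.11 CPM (476) and 16.6 CPM (477). One mouse in each treatment was therefore high, 112-fold above the next DMSO mouse and 59.3-fold above the next ABT-263 mouse. The members took 0.595% of all counts in mouse 481 (95% Wilson interval 0.592 to 0.598%) and 0.105% in mouse 478 (0.104 to 0.106%), and at most 0.00454% in any other mouse. These intervals cover counting error only.

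**Figure D1:**
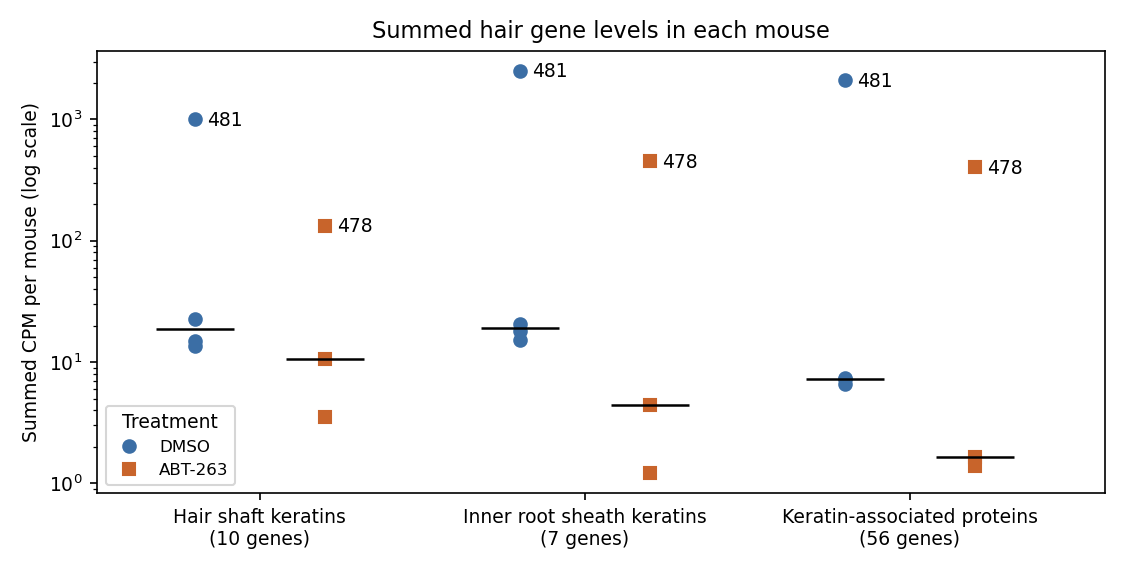
Summed CPM per mouse on a log axis for the 10 hair shaft keratins, 7 inner root sheath keratins and 56 keratin-associated protein genes, with DMSO mice as blue circles, ABT-263 mice as orange squares and a black line at each group's median. Mouse 481 (DMSO) and mouse 478 (ABT-263) stand above all other mice in each class, and mouse 481 stands above mouse 478.

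Each class showed the same 2 mice. The inner root sheath keratins summed to 2512 CPM in mouse 481 and 450.8 CPM in mouse 478, against 1.22 to 20.4 CPM in the others. The keratin-associated proteins summed to 2096 CPM in mouse 481 and 402 CPM in mouse 478, against 1.39 to 7.35 CPM. The hair shaft keratins summed to 1002 CPM and 132 CPM, against 3.504 to 22.8 CPM, and these higher values elsewhere came largely from Krt84, Krt35 and Krt32. Among the 5 remaining mice, every DMSO mouse was above both ABT-263 mice in each of the 3 classes. In the keratin-associated proteins this rested largely on Krtap3-2, at 3.07, 6.26 and 5.71 CPM in mice 480, 482 and 483. The 23 of these genes on chromosome 16 overlapped instead, at 1.88, 0.462 and 0.904 CPM in these mice and 1.04 and 0.529 CPM in mice 476 and 477. The order of the class sums was not tested.

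Gene by gene, 71 of the 73 members were higher in mouse 481 and in mouse 478 than in every other mouse, with Krtap3-2 and Krt84 as the exceptions, a pattern that 4.19% of the 23369 genes with at least 10 counts showed. Mouse 481 held the highest level of 69 members, mouse 478 that of Krtap5-2, Krtap5-3 and Krtap9-5, and mouse 480 that of Krt84. The share of all genes that were highest in mouse 481 was not computed. In the remaining 5 mice, 22 members had no count at all, and 38 had at most 3 counts summed. At least 1 count was found for all 73 members in both high mice, and for 36 (480), 20 (482), 25 (483), 27 (476) and 31 (477) members in the others. With every library thinned to 20344364 counts, these numbers were 33, 20, 25, 25 and 24, so the gap was as wide at equal depth.

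**Figure D2:**
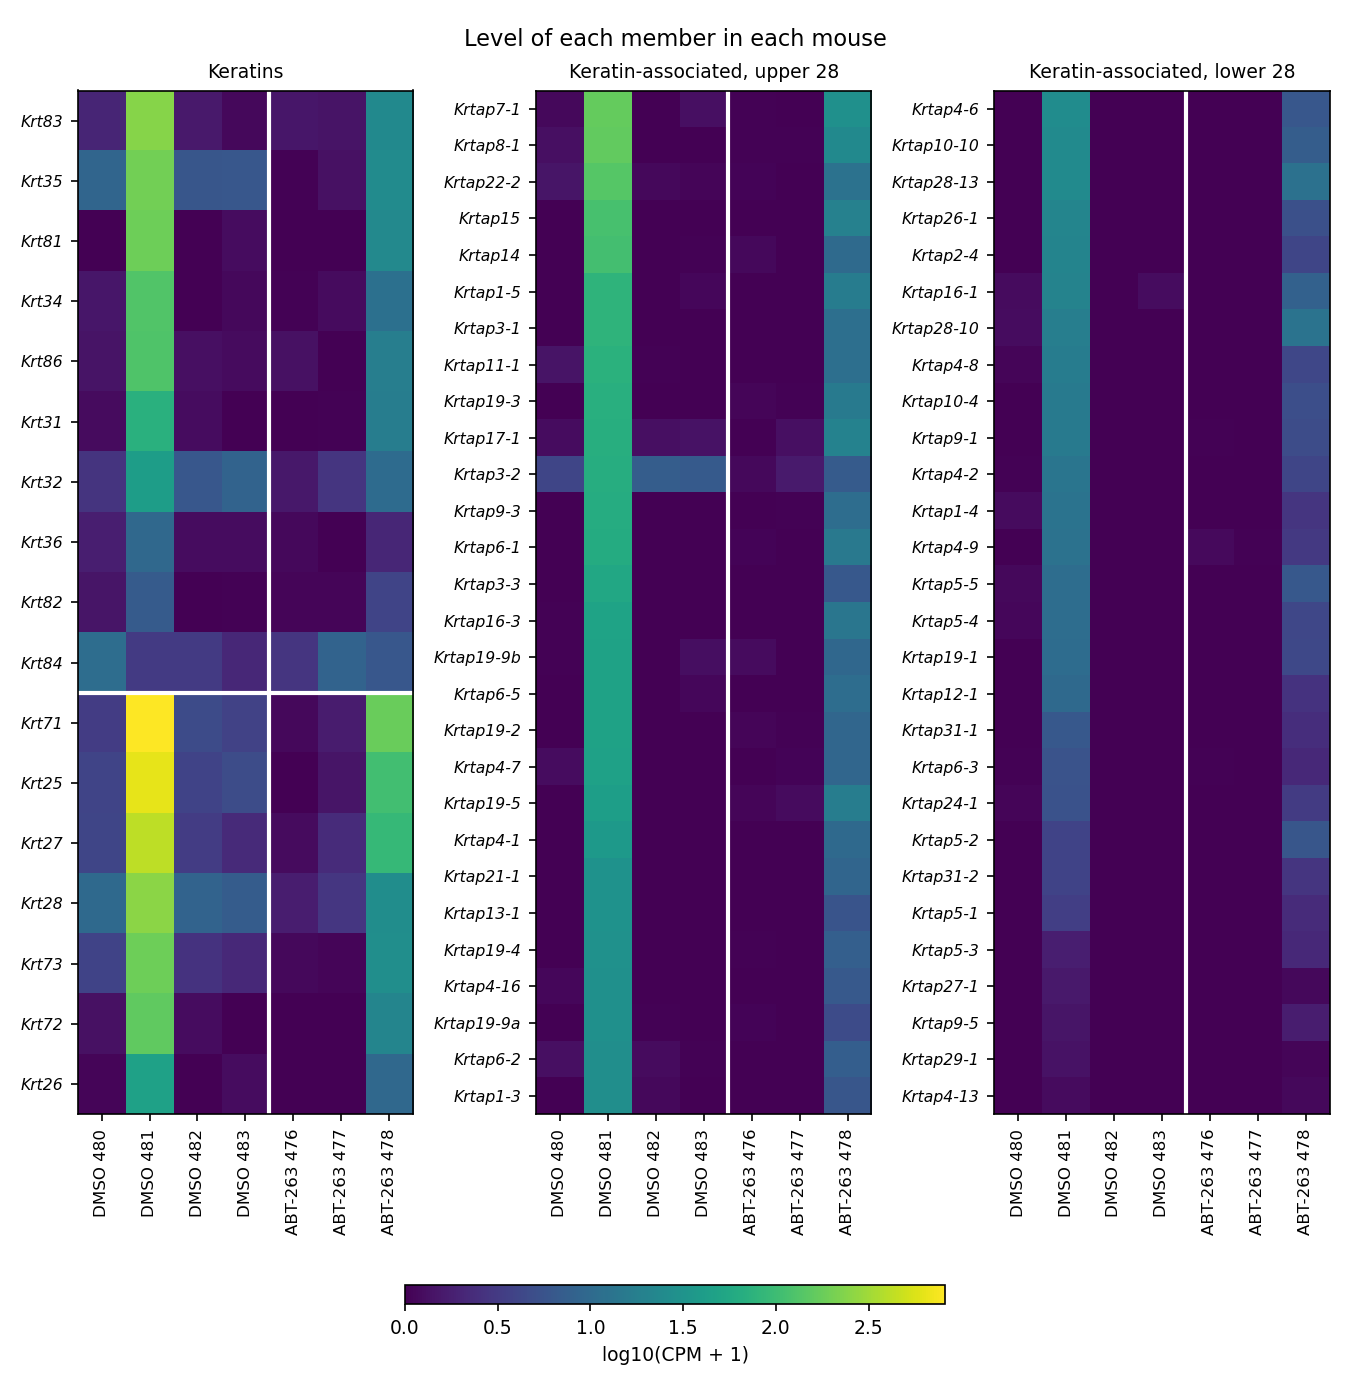
Level of each member in each mouse as log10(CPM + 1), with keratins in the left panel (hair shaft above the white line, inner root sheath below it) and keratin-associated proteins in the other 2 panels, ordered within class by their level in mouse 481. The columns of DMSO 481 and ABT-263 478 are bright throughout, Krt84 is the exception, and Krt35, Krt32, Krt28 and Krtap3-2 remain visible in DMSO 480, 482 and 483.

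The inner root sheath keratins had the highest class sum in both high mice, while in mice 480, 476 and 477 the hair shaft keratins summed higher. In mice 480 and 477 this order depended on Krt84. It made up 9.86 and 7.56 CPM of hair shaft sums of 22.8 and 10.5 CPM, against inner root sheath sums of 20.4 and 4.41 CPM. Krt71, the main type II keratin of the inner root sheath (ENSMUSG00000051879, chromosome 15, 101733949 to 101743109, minus strand), was at 2.25, 815, 3.59 and 2.75 CPM in DMSO mice 480, 481, 482 and 483. In ABT-263 mice 476, 477 and 478 it was at 0.143, 0.680 and 175 CPM. Mouse 481 was thus 227-fold above the next DMSO mouse and mouse 478 257-fold above the next ABT-263 mouse. Its type I partner Krt25 was at 2.99, 639, 2.87 and 3.74 CPM in the DMSO mice and at 0, 0.454 and 106 CPM in the ABT-263 mice, in the same order. Krt27, another type I keratin of this sheath, reached 421 CPM in mouse 481 and 88.8 CPM in mouse 478 and at most 3.11 CPM elsewhere.

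The remaining sheath keratins followed. Krt28 was at 252 CPM in mouse 481 and 26.0 CPM in mouse 478, Krt73 at 183 and 26.4 CPM, Krt72 at 156 and 19.9 CPM, and Krt26 at 45.8 and 8.74 CPM. Per kilobase of exon, which allows genes to be compared, Krt71 had 373 CPM per kb in mouse 481 and Krtap22-2 had 376 CPM per kb. In mouse 478 the same measure was 80.1 CPM per kb for Krt71 and 31.8 CPM per kb for Krtap22-2. Both genes were thus nearly equal in mouse 481, while Krt71 was above Krtap22-2 in mouse 478.

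Among the hair shaft keratins, Krt35, which starts early in the matrix and lower cortex, was at 7.90, 195, 4.98 and 5.14 CPM in DMSO mice 480, 481, 482 and 483. In ABT-263 mice 476, 477 and 478 it was at 0.0358, 0.353 and 24.3 CPM, so the low DMSO mice kept a measurable level and the low ABT-263 mice almost none. The cortex keratins that follow it had little or nothing outside the high mice. Krt83 reached 241 CPM in mouse 481 and 23.2 CPM in mouse 478, with at most 1.02 CPM elsewhere. Krt81 was at 183 and 22.4 CPM, Krt86 at 127 and 16.7 CPM, Krt34 at 130 and 10.8 CPM, and Krt31 at 69.3 and 16.2 CPM, each at most 0.491 CPM elsewhere. The cuticle keratin Krt32 was at 1.76, 40.4, 5.13 and 7.48 CPM in the DMSO mice and at 0.536, 1.81 and 9.47 CPM in the ABT-263 mice, a much narrower span. Krt82, its type II counterpart, reached 5.81 CPM in mouse 481 and 2.99 CPM in mouse 478, and Krt36 reached 8.55 and 1.07 CPM.

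Krt84 (ENSMUSG00000044294, chromosome 15, 101525026 to 101532820) did not follow the other members. This type II keratin, known from the filiform papillae of the tongue, was at 9.86, 2.11, 2.16 and 1.11 CPM in DMSO mice 480, 481, 482 and 483. In ABT-263 mice 476, 477 and 478 it was at 1.79, 7.56 and 5.24 CPM. It was highest in mice 480 and 477, which were also the highest in Krt16, a keratin of stressed and wound-edge epidermis. Krt16 was at 9686, 412, 1855 and 1279 CPM in the DMSO mice and at 3328, 9832 and 3739 CPM in the ABT-263 mice.

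The keratin-associated proteins were led by members with high glycine and tyrosine content. Krtap7-1 was at 168 CPM in mouse 481 and 28.01 CPM in mouse 478, Krtap8-1 at 164 and 23.3 CPM, and Krtap22-2 at 137 and 11.6 CPM, none above 0.450 CPM elsewhere. Krtap15 reached 115 CPM in mouse 481 and 18.1 CPM in mouse 478 and had no count in the remaining 5 mice, so mouse 481 was at least 748-fold above the other DMSO mice with a floor of 3 counts per library. Krtap14 (110 and 9.26 CPM), Krtap1-5 (77.0 and 15.9 CPM) and Krtap3-1 (76.4 and 10.7 CPM) had the next highest levels in mouse 481. Summed by family, Krtap19 (7 genes) reached 269 CPM in mouse 481, Krtap3 (3 genes) 196 CPM, Krtap4 (8 genes) 175 CPM and Krtap6 (4 genes) 139 CPM.

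Krtap3-2 (ENSMUSG00000069721, chromosome 11, 99555823 to 99556853) was the one keratin-associated protein gene with counts well above the floor in every DMSO mouse. It was at 3.07, 64.7, 6.26 and 5.71 CPM in DMSO mice 480, 481, 482 and 483, and at 0.143, 0.605 and 5.80 CPM in ABT-263 mice 476, 477 and 478. Mouse 478, high in nearly all other members, lay between DMSO mice 483 and 482 in this gene. Its family members Krtap3-1 and Krtap3-3 had no count outside the high mice and reached 76.4 and 55.0 CPM in mouse 481.

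The composition of the members' counts differed little between the high mice. Inner root sheath keratins made up 44.8% of member counts in mouse 481 and 45.8% in mouse 478, keratin-associated proteins 37.4% and 40.8%, and hair shaft keratins 17.9% and 13.4%. In the other 5 mice the hair shaft keratins took 35.1 to 63.4% and the keratin-associated proteins 10.02 to 22.8%. Krt84 alone held 241 of the 558 hair shaft counts in mouse 480 and 300 of the 418 in mouse 477. Across the 73 members, levels per kilobase in mouse 478 and in mouse 481 had a Spearman correlation of 0.938, which is across genes that are no independent replicates.

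**Figure D3:**
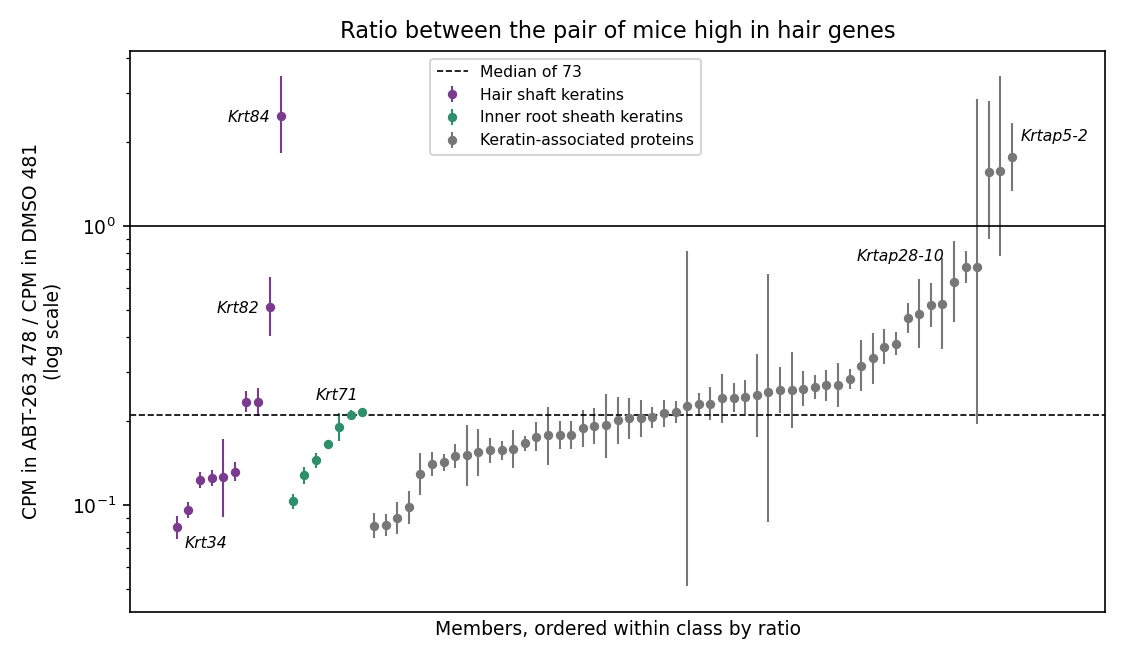
Ratio of the level in ABT-263 mouse 478 to that in DMSO mouse 481 for each member, on a log axis, with its exact 95% interval for counting error, ordered within class. Most members lie near the dashed median of 0.211, Krt34 is the lowest at 0.0832, Krt84 the highest at 2.49, and Krtap5-2 is at 1.77.

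Mouse 478 was below mouse 481 in most members, but by unequal amounts. The ratio of 478 to 481 had a median of 0.211 over the 73 members, its 95% interval lay below 1 for 68 of them, above 1 for Krtap5-2 and Krt84, and included 1 for 3. These ratios compare 1 library with another, not the treatments. The lowest belonged to Krt34 (0.0832, 0.0756 to 0.0914), Krtap14 (0.0841), Krtap22-2 (0.0847), Krtap3-2 (0.0897) and Krt83 (0.0961). The Krtap3 family as a whole was at 0.112 and Krt28 at 0.103.

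Other members had ratios nearer to 1. Of the cuticle keratins, Krt82 had a ratio of 0.514 (0.403 to 0.655), while Krt32, at 0.234, lay near the median. The Krtap5 genes on chromosome 7, known from the cuticle, summed to 26.2 CPM in mouse 481 and 15.9 CPM in mouse 478, a ratio of 0.607, and Krtap5-2 alone to 2.82 and 4.98 CPM, a ratio of 1.77 (1.34 to 2.35). The Krtap28 genes on chromosome 1 had 0.568, and the Krtap31 genes 0.388. By contrast, the keratin-associated protein genes on chromosome 11 had 0.187 and those on chromosome 16 had 0.172 as summed ratios. Krtap10 (0.264) and Krtap12-1 (0.193), whose relatives are also known from the cuticle, lay near the median.

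No member passed the test between the treatments. After the expression filter 16 members were tested, 13 keratins with Krtap22-2, Krtap11-1 and Krtap3-2, and edgeR's quasi-likelihood test called 0 of them at an adjusted p under 0.05, against 24.2% of all 17959 genes tested (11.7% lower and 12.4% higher after ABT-263). None of the 16 had an unadjusted p from edgeR under 0.05 (40.1% of all genes did). The 16 passed the filter mainly through the high mice, and the other 57 members were not tested. The DESeq2 Wald test gave an adjusted p to only 4 members and called 0 of them, against 25.9% of 21822 genes. Over the 16, the log2 fold change of ABT-263 over DMSO had a median of −2.43, against 0.00 for all genes tested, and 15 values were negative. The standard errors had a median of 2.48, against 0.247 over all genes. No member's groups were free of overlap, against 31.4% of the 23369 genes with at least 10 counts.

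The smallest adjusted p from edgeR was that of Krtap3-2, at 0.168, with a log2 fold change of −3.16 (SE 1.53). Krt28 had −2.84 (SE 1.90, adjusted p from edgeR 0.307) and Krt71 −1.81 (SE 2.77, adjusted p from edgeR 0.663). Krt84 had 0.35 (SE 0.782, adjusted p from edgeR 0.769). The summed level was 1434 ± 2784 CPM (SD, n = 4) in the DMSO mice and 336 ± 562 CPM (SD, n = 3) in the ABT-263 mice, so each SD exceeded its mean. The ratio of the means, ABT-263 over DMSO, was 0.234.

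The direction of the difference rested on single mice. Without mouse 481 the median log2 fold change of the members tested became 1.35 (10 tested), and without mouse 478 it became −7.06 (14 tested). Leaving out any other mouse gave −2.85 to −1.27. The summed level likewise had a log2 ratio of 3.00 without mouse 481 and of −6.98 without mouse 478. In each of these fits 0 members were called. DESeq2 gave no p-value to 67 of the 73 members, against 0.9496% of the 30645 genes with counts, because its outlier filter set them aside.

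**Figure D4:**
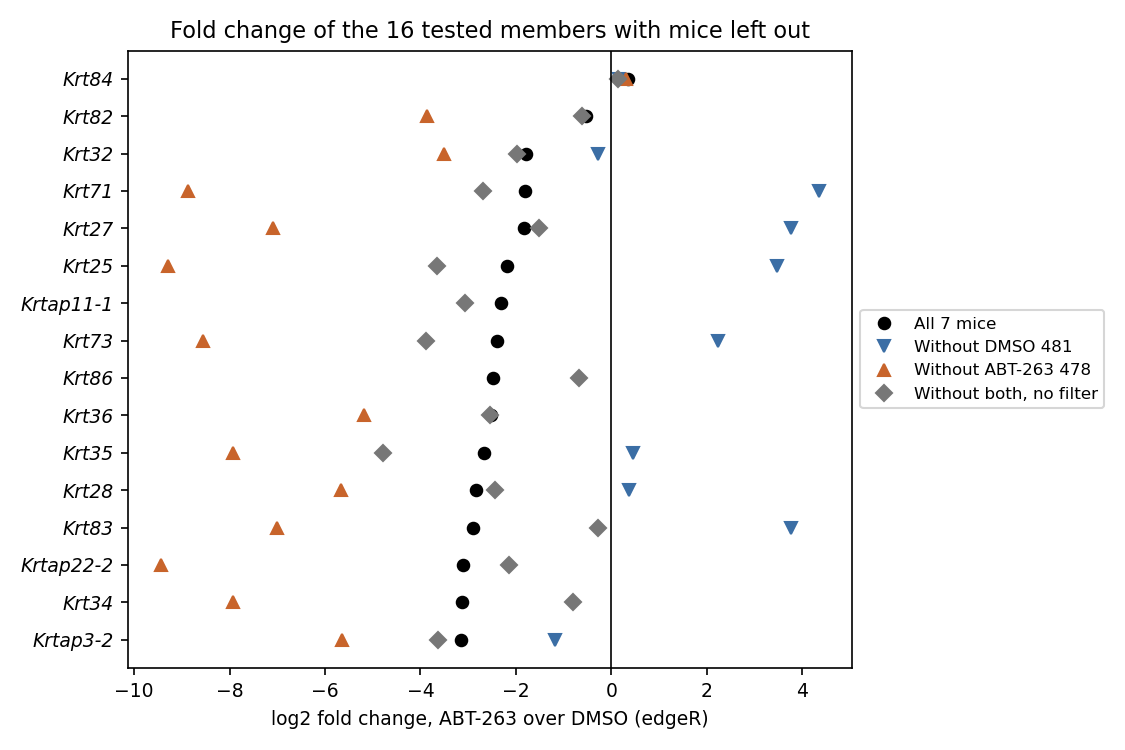
Log2 fold change (ABT-263 over DMSO, edgeR) of the 16 tested members with all 7 mice, without DMSO 481, without ABT-263 478, and without both and without the filter on low counts. A symbol is missing where the gene failed the filter. Krt71 moves from −1.81 with all mice to 4.36 without mouse 481 and −8.86 without mouse 478.

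With both high mice set aside, an alternative chosen after seeing the data, 3 DMSO and 2 ABT-263 mice remained. With the expression filter 10 members were tested and 0 called, as were 0.0% of all 18170 genes. Of the 10, 7 had an unadjusted p from edgeR under 0.05 and a lower level after ABT-263, as did 12.7% of all genes. Some of the 10 could pass the filter only through the DMSO mice, such as Krt73, with 4 counts in each of mice 476 and 477. The 7 are therefore no independent support for a lower level. Testing every gene with a count, edgeR called 5 of 51 members lower (1.82% of 29159 genes were called lower and 4.38% in either direction). These were Krt35 (−4.78, SE 0.674, adjusted p from edgeR 0.00648), Krt28 (−2.44, SE 0.435, 0.00854), Krtap3-2 (−3.64, SE 0.605, 0.00925), Krt73 (−3.88, SE 0.714, 0.00927) and Krt71 (−2.70, SE 0.612, 0.0227). In that fit 8 of the 51 were lower at an unadjusted p under 0.05, against 7.82% of all genes. Krtap19-5 was higher at that threshold (5.14, SE 2.29, unadjusted p from edgeR 0.0423), and 13 of the 51 had a positive log2 fold change. All 5 calls depended on the mice set aside and on the filter. The levels behind them were at most 8.80 CPM. Of the 7 inner root sheath keratins 3 were thus called in that fit, and Krt25, Krt72, Krt27 and Krt26 were not, with adjusted p-values from edgeR of 0.105, 0.234, 0.283 and 0.356. Krt83 (−0.29, SE 0.813) and Krt84 (0.14, SE 1.31) had adjusted p-values from edgeR of 0.870 and 0.972.

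Hair genes that the rule did not name showed the same pair of mice. The 6 further hair keratins, Krt33a, Krt33b, Krt39, Krt40, Krt74 and Krt87, summed to 304 CPM in mouse 481 and 47.1 CPM in mouse 478, and to at most 0.941 CPM elsewhere. Of 11 other shaft and sheath proteins, 9 were highest in mouse 481, again without a share over all genes. With all mice 0 of the 10 tested were called, against 24.2% of all genes tested. Without mouse 481 Tchh was called higher after ABT-263 (log2 fold change 4.28), and without mouse 480 Tgm3 was (1.75). S100a3, a calcium-binding protein of the cuticle, was at 4.91, 351, 2.62 and 3.62 CPM in DMSO mice 480, 481, 482 and 483 and at 1.04, 2.02 and 55.4 CPM in ABT-263 mice 476, 477 and 478. Tchh, which encodes trichohyalin, was at 3.19, 477, 2.67 and 2.46 CPM in the DMSO mice and at 30.8, 5.65 and 126 CPM in the ABT-263 mice, so mouse 476 was also above the low DMSO mice in this gene. Padi3, which converts arginine to citrulline in trichohyalin, was at 54.8 CPM in mouse 481 and 8.81 CPM in mouse 478 and at most 0.491 CPM elsewhere. Tgm3 and Psors1c2, which the epidermis also makes, were instead highest in mice 477 (121 CPM) and 480 (279 CPM).

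The genes most like the summed members outside the rule were S100a3 (Pearson r of 0.992 on log2(CPM + 0.5) over the 7 mice), Csdc2 (0.984), Krt33a (0.977), Gm47969 (0.973) and A030005L19Rik (0.971). Acbd4 (0.970), Gm18596 (0.968), Krt87 (0.965), Gm11562 (0.964) and Gm2696 (0.963) completed the 10 highest of 15626 genes compared. With so few mice, in separate clusters, these values are set mostly by mice 481 and 478 and describe only those libraries. Acbd4 shows this, since it ranged only from 31.6 to 51.3 CPM. Gm2696 is the near-identical neighbour of Krtap10-10.

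Of 15 regulators of hair formation, 11 were highest in mouse 481, for which the share over all genes was not computed. The margin was small in some, such as Vdr, at 114 CPM against 101 CPM in mouse 480. Mouse 478 was the highest ABT-263 mouse in 5, Hoxc13, Lef1, Msx2, Shh and Wnt10b, and was among the highest 2 of all mice in Msx2 alone. Hoxc13, a homeobox factor that switches on hair keratin genes, was at 6.38, 28.6, 6.67 and 6.61 CPM in DMSO mice 480, 481, 482 and 483 and at 1.57, 3.20 and 5.52 CPM in ABT-263 mice 476, 477 and 478. Mouse 478 thus lay above its own group and below every DMSO mouse in Hoxc13, while its keratin sums lay far above those of 3 DMSO mice. Lef1, the Wnt effector of the matrix, was at 20.8 CPM in mouse 481, 3.98 to 5.49 CPM in the other DMSO mice, and 1.39, 1.89 and 2.90 CPM in ABT-263 mice 476, 477 and 478. Msx2 was at 47.6 CPM in mouse 481, 5.70 to 6.33 CPM in the other DMSO mice, and 1.11, 2.72 and 6.44 CPM in the ABT-263 mice.

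**Figure D5:**
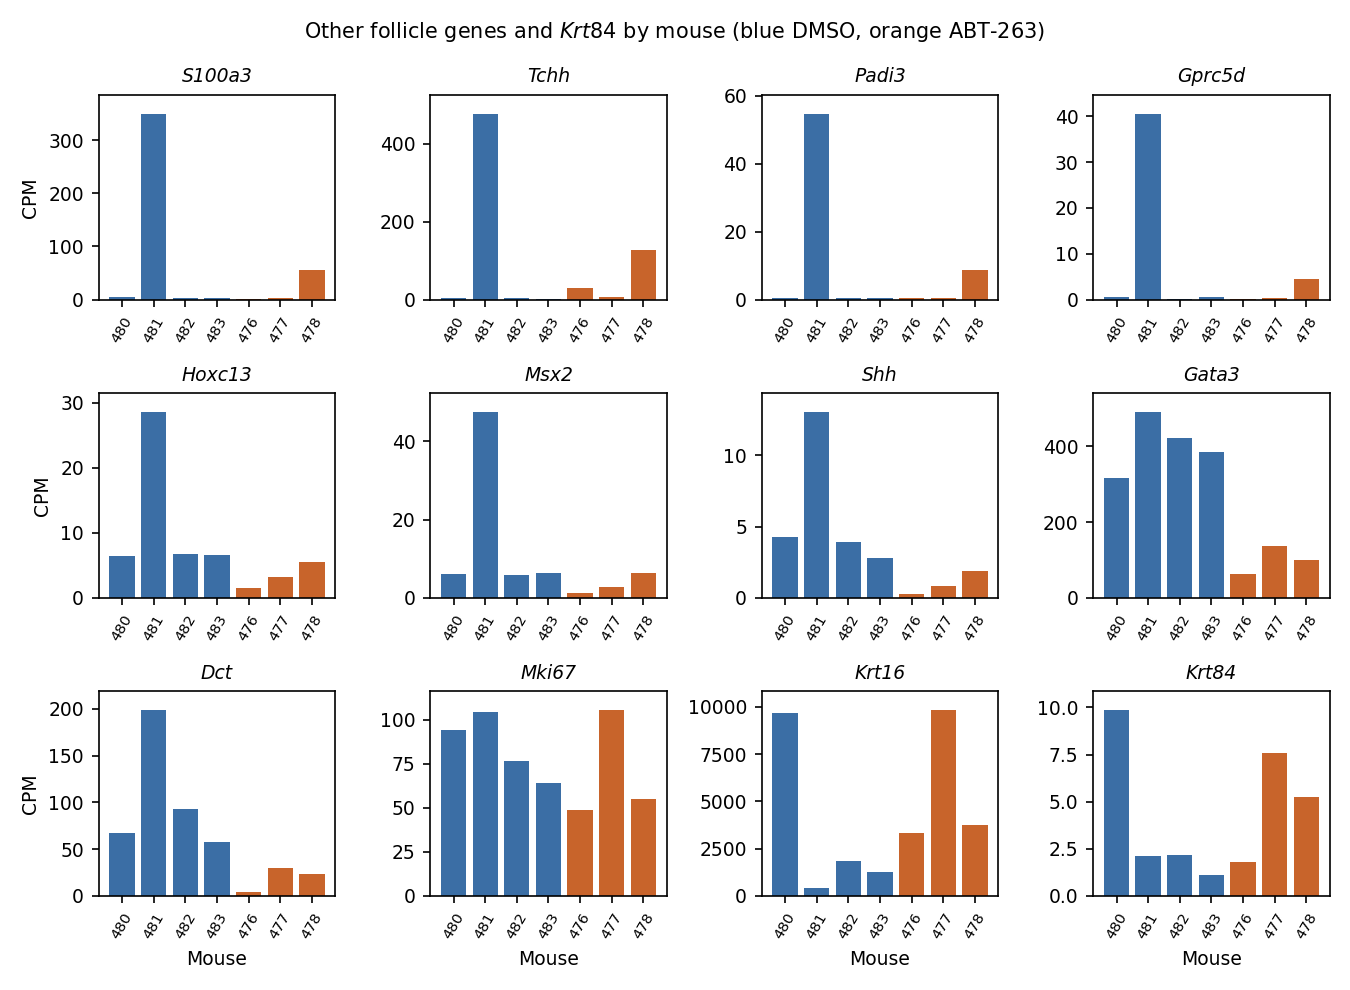
CPM in each mouse on linear axes that start at 0, with DMSO mice in blue and ABT-263 mice in orange, for 4 other hair proteins, 4 regulators, Dct, Mki67, Krt16 and Krt84. S100a3, Tchh, Padi3 and Gprc5d peak in mice 481 and 478, Hoxc13, Msx2, Shh, Gata3 and Dct are highest in mouse 481 with mouse 478 near or below the other DMSO mice, and Krt16 and Krt84 are highest in mice 480 and 477.

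Between the treatments, edgeR called 3 of the 15 regulators lower after ABT-263 (11.7% of all genes were) and none higher. Gata3, needed for the inner root sheath, was at 317, 491, 423 and 386 CPM in the DMSO mice and at 61.5, 137 and 98.8 CPM in the ABT-263 mice. The groups did not overlap (37.1% of all genes tested did not), and the log2 fold change was −2.03 (SE 0.291, adjusted p from edgeR 0.00676), past the threshold whichever mouse was left out. Shh, a signal of the matrix that drives growth of the follicle, had −2.58 (SE 0.773, adjusted p from edgeR 0.0457) and Foxq1, a regulator of the hair medulla, −1.05 (SE 0.316, 0.0452). Shh lost the call whichever mouse was left out, and Foxq1 did so except without mouse 477. With a mouse left out, 1 to 3 regulators were called. The remaining 12, among them Hoxc13 (−1.80, SE 0.700, adjusted p from edgeR 0.0962), did not pass with all mice.

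Genes of the stem cell compartment and the lower follicle gave 4 of 10 calls lower and 0 higher, against 11.7% and 12.4% of all genes tested. Sox9, a stem cell and outer root sheath factor (−1.29, SE 0.229, adjusted p from edgeR 0.0102), and Lgr6 (−1.38, SE 0.291, 0.0162), a receptor of the upper follicle, passed whichever mouse was left out. Krt15, a bulge keratin (−1.45, SE 0.385, adjusted p from edgeR 0.0312), and Lhx2 (−1.19, SE 0.344, 0.0408), a bulge factor, did not pass when mouse 481, 482, 483 or 478 was left out, and Krt15 also failed without 476 and Lhx2 without 480. Cd34 had 0.29 and an adjusted p from edgeR of 0.270. Mouse 478 was the highest of all mice in 1 of the 10 genes, Cd34, at 180 CPM against 92.6 to 143 CPM in the others. In Krt15 it was at 688 CPM, below every DMSO mouse (1099 to 2626 CPM).

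In the dermal papilla list 2 of 9 tested genes were lower and 1 was higher, against 11.7% and 12.4% of all genes tested, so the share called was near the 24.2% of all genes. Rspo3, a booster of Wnt signals, was lower in the ABT-263 mice (3.00, 3.53 and 3.93 CPM in mice 476, 477 and 478) than in the DMSO mice (8.63 to 13.9 CPM), with a log2 fold change of −1.67 (SE 0.233, adjusted p from edgeR 0.00635). Sostdc1 fell by 0.67 on the log2 scale (SE 0.205, adjusted p from edgeR 0.0476, past the threshold with a mouse left out only without 477), and Fgf7 rose by 2.46 (SE 0.572, 0.0230, past it only without 480 or 477). Alx4, not called with all mice, passed without mouse 478. Of the 6 signals of the resting follicle and of the end of anagen, 1 was called, against 24.2% of all genes tested. This was Bmp4, at −1.47 (SE 0.378, adjusted p from edgeR 0.0291, past the threshold with a mouse left out only without 480 or 481). Fgf5, which ends anagen, was at 1.81 CPM in mouse 481 and at most 0.605 CPM in any other mouse, including 0.516 CPM in mouse 478.

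Melanin genes, which are active in the anagen bulb, were highest in mouse 481 for 8 of 9 genes, again without a share over all genes. Dct, an enzyme of melanin synthesis, was at 67.8, 199, 92.9 and 58.1 CPM in the DMSO mice and at 3.86, 30.2 and 23.6 CPM in the ABT-263 mice. It was the 1 gene called of 8 tested (−2.44, SE 0.738, adjusted p from edgeR 0.0492), and it lost the call whichever mouse was left out. Of all genes tested 11.7% were called lower, so the share in this list was near that of all genes. Mouse 478 lay below every DMSO mouse in Dct. Over the 9 genes, however, it was the highest ABT-263 mouse in 7 and among the highest 2 of all mice in 4, such as Tyrp1, at 5.41 CPM against 13.1 CPM in mouse 481 and at most 3.39 CPM elsewhere. Of 10 proliferation genes, 3 were highest in mouse 481 (Top2a, Ccna2 and Mcm2) and 1 in mouse 478 (Bub1). The spans were narrow, with Mki67 at 104 CPM in mouse 481, 54.9 CPM in mouse 478 and 48.6 to 106 CPM elsewhere. edgeR called 0 of the 10 with all mice (24.2% of all genes were called) and 1, Pcna, without mouse 481.

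Markers of other cell types moved with the high mice in part, and their part in these results was not tested. Of 7 epidermal genes 0 were called and none was highest in mouse 481 or 478, and the list summed to 25846 CPM in mouse 481 and 31375 CPM in mouse 478, within the range of 19304 to 68511 CPM over all mice. The 4 wound-edge keratins summed to 2529 CPM in mouse 481, the lowest of all mice, and to 10182 CPM in mouse 478, against 4262 to 21748 CPM in the others. Of these 4, 0 were called with all mice and 3 (Krt6a, Krt6b and Krt16) were called higher after ABT-263 without mouse 480, the DMSO mouse highest in them. The 5 macrophage and neutrophil genes summed to 157 CPM in mouse 481, also the lowest, and to 5809 CPM in mouse 478, against 654 to 1939 CPM in the other DMSO mice and 5289 and 8388 CPM in the other ABT-263 mice. Of these, 4 were called higher after ABT-263 (12.4% of all genes were), Adgre1, Cd68, Csf1r and S100a8, though with a mouse left out Adgre1 passed only without 477, Cd68 only without 480 or 481, S100a8 not without 483, 476 or 478, and Csf1r not without 483. Without mouse 483 none of the 5 was thus called, and S100a9 passed only without mouse 481. The 3 adipocyte genes summed to 499 CPM in mouse 478, the highest, and to 46.4 CPM in mouse 481, the lowest, and 0 were called. The 5 sebaceous genes summed to 458 CPM in mouse 481 and 709 CPM in mouse 478 (396 to 976 CPM elsewhere), and Mc5r alone was called (−1.65, SE 0.204, adjusted p from edgeR 0.00619), with Scd3 passing too without 476 and Awat2 without 477. The 5 muscle genes summed to 35830.4 and 25805 CPM (16729 to 50742 CPM elsewhere), and Tnnt3 alone was called (−1.16, SE 0.311, adjusted p from edgeR 0.0319, past the threshold with a mouse left out only without 480, where Ckm passed too). The 3 fibroblast genes summed to 2470 and 4703 CPM (2462 to 3794 CPM elsewhere), and Pdgfra alone was called (1.72, SE 0.353, adjusted p from edgeR 0.0156). Over all genes tested 24.2% were called, 11.7% lower and 12.4% higher, so 1 call in a list of 3 or 5 genes says little about that list.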

How the data were processed

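PolyA RNA from dorsal skin of 7 mice was sequenced. Reads were aligned by the authors with STAR 2.7.9a to build mm10. The authors counted read pairs per gene in featureCounts (Subread 1.6.2), with annotation from Ensembl build 109, and deposited these counts without normalization. A second deposited table, of variance-stabilized values, was not used.

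GENCODE M21 (GRCm38) gave symbols, lengths and positions for 55190 of 55450 identifiers, and promoters came from RefSeq on GRCm38.p6. The whole table was fitted in R 4.3.3 with the two-sided quasi-likelihood test of edgeR 4.0.16 (TMM, filterByExpr, robust, no covariate), and p-values were adjusted by the Benjamini-Hochberg method over all 17959 genes tested. Each SE is the absolute log2 fold change divided by the square root of that test's F statistic, and is thus derived from the test, not fitted directly. The fit was tested on simulated data. Alternatives were the Wald test of DESeq2 1.42.0 with its default filters, DESeq2 size factors, no filter, at least 10 counts in every library, thinning, and leaving out each mouse. Leaving out both 481 and 478 was added after seeing the data. Near-identical bases were found with blastn 2.17.0 (99% identity over at least 100 bases).

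The members and lists were chosen with earlier results of these data known, so no list received a test. Named members are the listed keratins, the 8 keratin-associated protein genes with the highest mean CPM, the leading gene of each family described, every member called, those next to the minimum count, the 10 most similar genes and the genes of the marker lists. Krtap5-2, Krtap5-3, Krtap9-5, Krtap3-3, Krtap12-1 and Krtap19-5 were chosen after their values were seen. p-values measure the spread between these mice. Totals of 20344364 to 43562330 counts put 3 counts, the floor used for genes at 0, at 0.0644 to 0.154 CPM. Intervals on ratios of counts are exact, those on shares are Wilson intervals, both at 95%, and both cover counting error only.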

Additional observations from a re-analysis of the deposited data

Results flagged for a closer look

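Over the 4 DMSO mice, Dixon's ratio (the gap between an extreme mouse and its neighbour, divided by the whole range) was computed for 45 levels. It passed the 95% critical value for 32 of them, where chance gives about 1 in 20 groups, and the levels are not independent of one another. In 30 of the 32 the mouse was 481, which lay above the other DMSO mice. The ratio was 0.998 for the sum of all members, 0.991 for the hair shaft keratins, 0.998 for the inner root sheath keratins and 1 (rounded) for the keratin-associated proteins. Among inner root sheath keratins it was 0.998 for Krt71 and Krt72, 0.999 for Krt25, 0.996 for Krt27, 0.989 for Krt28, 0.991 for Krt73 and 0.995 for Krt26. Among hair shaft keratins it was 0.999 for Krt81, 0.998 for Krt86, 0.996 for Krt83, Krt34 and Krt31, 0.985 for Krt35, 0.852 for Krt32, 0.923 for Krt82 and 0.941 for Krt36. Among keratin-associated proteins it was 0.998 for Krtap7-1, Krtap8-1 and Krtap1-5, 0.997 for Krtap22-2, 1 for Krtap15, Krtap14 and Krtap3-1, 0.948 for Krtap3-2 and 0.994 for Krtap11-1. The hair keratins outside the rule had 0.999. Mouse 480 was the distant mouse for the remaining pair, at 0.880 for Krt84 and 0.843 for the summed wound-edge keratins. Groups of 3 were not examined, so the high level of ABT-263 mouse 478 has no such value.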

How the results depend on the processing

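No paired analysis was possible because the mouse numbers 476 to 478 and 480 to 483 do not recur between the treatments. The count of members called was 0 under edgeR, DESeq2 size factors, both other filters and each mouse left out (range 0 to 0). It was 5 only without both 481 and 478 and without the filter. The DESeq2 Wald test also called 0, but it gave an adjusted p to only 4 members. The median log2 fold change ranged from −7.06 (without 478) to 1.35 (without 481) with a mouse left out. The log2 ratio of summed levels ranged from −6.98 to 3.00 for all members, from −5.23 to 1.51 for the hair shaft keratins, from −7.83 to 3.09 for the inner root sheath keratins and from −8.44 to 4.26 for the keratin-associated proteins, lowest without 478 and highest without 481 in each. Members whose log2 fold change turned sign ranged, without 478 and without 481, from −8.86 to 4.36 (Krt71), −7.02 to 3.77 (Krt83), −7.10 to 3.76 (Krt27), −9.30 to 3.46 (Krt25), −8.56 to 2.23 (Krt73), −7.93 to 0.46 (Krt35) and −5.67 to 0.37 (Krt28). Krt84 ranged from −0.11 (without 477) to 1.45 (without 480). With 10 counts in place of 1, members with a count numbered 16 (480), 10 (482), 9 (483), 5 (476) and 10 (477). The median was −0.79 over the 6 members to which DESeq2 gave a p-value, and the mean of log2(CPM + 0.5) over all members differed by −0.41 in place of −2.09 for the sum. Scaling, filter and test changed no other direction or call. Depth limits the low mice, where 38 of the 73 members had at most 3 counts summed, so for those members differences among these mice were not detectable at this depth.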
